A study of Mus musculus with 78 samples.

Results

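Ccl2, Ccl7, Ccl5 and Ccl20 are CC chemokines that were followed in tissue-engineered cartilage grown from mouse induced pluripotent stem cells. They were chosen by name from the deposited mRNA count table, and all 4 were among its 52459 named genes and among the 18857 genes that passed a filter on low counts. Ccl20 passed that filter through its treated libraries, since its control libraries held 1 to 11 counts each. The cartilage was left untreated (control, at 0, 4, 12, 24 and 72 h) or received a cytokine for 4, 12, 24 or 72 h. This was interleukin-1 beta (IL-1beta, 1 ng/mL) or tumor necrosis factor alpha (TNF-alpha, 20 ng/mL). Both are inflammatory cytokines that are raised in arthritic joints. The 13 groups held 3 libraries each, except the control at 0 h with 2. The labels do not say whether the libraries of a group came from separate cultures, so p-values may measure only technical spread. The title sets the series in the study of miRNA and mRNA responses to inflammatory cytokines. All groups shared the same engineered tissue and differed only by cytokine and time as far as the labels say.

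The 38 libraries used held 11163263 to 68655350 counts. Replicate b of the control at 0 h held 220180 counts on named genes, correlated with the other libraries of its group at 0.186 and 0.187, and was left out. The 8 libraries of IL-1beta at 4 h and of the control at 0 and 4 h stood apart from the other 30: 10 genes parted them by at least 4-fold with no overlap. TNF-alpha against control at 4 h and IL-1beta against TNF-alpha at 4 h cross that parting, so at 4 h it cannot be told apart from those differences. Levels with IL-1beta at 4 h and at later times also lie on different sides of that parting. All 8 chondrocyte markers listed, such as Col2a1 and Acan, were above the filter. Their summed level was 69352 to 130237 CPM (counts scaled by the library's TMM-scaled total count) in the control libraries.

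Chemokines are small secreted proteins that guide leukocytes along a concentration gradient through receptors coupled to G proteins. Ccl2 and its neighbour Ccl7 attract monocytes through Ccr2, and Ccl7 also binds Ccr1 and Ccr3. Ccl5, long known as RANTES, draws T cells, monocytes and eosinophils through receptors that include Ccr1 and Ccr3, while Ccl20 acts through Ccr6 on dendritic cells, B cells and T helper cells. Receptors for IL-1 and for TNF both lead to NF-kappaB, a transcription factor that acts on many chemokine genes, and chondrocytes of inflamed joints are a known source of several of these ligands.

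In the RefSeq annotation of GRCm38.p6, the assembly of the submitters' build mm10, 3 of the 4 genes lay on chromosome 11. Ccl2 (chr11:82035577-82037452) and Ccl7 (chr11:82045712-82047525) were direct neighbours with 8259 bases between them. Ccl5 (chr11:83525778-83530518) lay 1.48 Mb further on, beside Ccl9 and Ccl6. Ccl20 (chr1:83116766-83119167) stood alone on chromosome 1.

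The table of promoters from RefSeq held 1 of the 4 genes, Ccl20, the gene with the largest estimated rise of the 4 at 4 h. Its 250 bases before the transcription start (chr1:83116516-83116765, GRCm38.p6, plus strand) are shown 5′ to 3′ with 2 motif matches in capitals, a match to the NF-kappaB consensus and then the TATA letters.
Ccl20 promoter: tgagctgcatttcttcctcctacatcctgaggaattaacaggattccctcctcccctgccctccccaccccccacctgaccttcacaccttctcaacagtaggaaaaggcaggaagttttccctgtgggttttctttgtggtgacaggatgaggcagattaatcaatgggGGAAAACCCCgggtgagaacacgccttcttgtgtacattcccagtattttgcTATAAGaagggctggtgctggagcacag
The NF-kappaB match, read on the minus strand, covered the bases from -80 to -71 relative to the start, and TATAAG covered -28 to -23. Both strands were searched, and the matches did not overlap. Of 32851 promoters, 7.25% held the NF-kappaB consensus in the same 250 bases, 6.65% held TATAAG, and 6.75% held the AP-1 letters TGANTCA, which had 0 matches in that of Ccl20. These matches describe letters and were not tested as binding sites.

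Each of the 4 chemokines was higher in every library with IL-1beta or TNF-alpha than in any control library of the study. All 32 tests of a member against the control of the same time were called higher (edgeR, adjusted p under 0.05). In all 32 the groups did not overlap. The 8 tests of Ccl20 add no separate support, since that gene passed the filter through its treated libraries. Ccl5 and Ccl20 started near the limit of detection and had larger log2 fold changes than the other two, except Ccl20 with IL-1beta at 12 h (4.58 against 4.91 for Ccl2), while Ccl2 and Ccl7 had a measurable level without cytokine. In bulk tissue such as this, fewer cells of a type and less RNA per cell cannot be told apart. Of all 18857 genes tested, the share called higher with IL-1beta was 15.5% at 4 h, 14.5% at 12 h, 17.0% at 24 h and 19.3% at 72 h. With TNF-alpha it was 10.9%, 14.6%, 13.2% and 17.8%. The share with the cytokine group wholly above its control was 19.6%, 18.8%, 23.5% and 25.7% with IL-1beta and 18.2%, 17.4%, 20.1% and 22.2% with TNF-alpha.

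**Figure D1:**
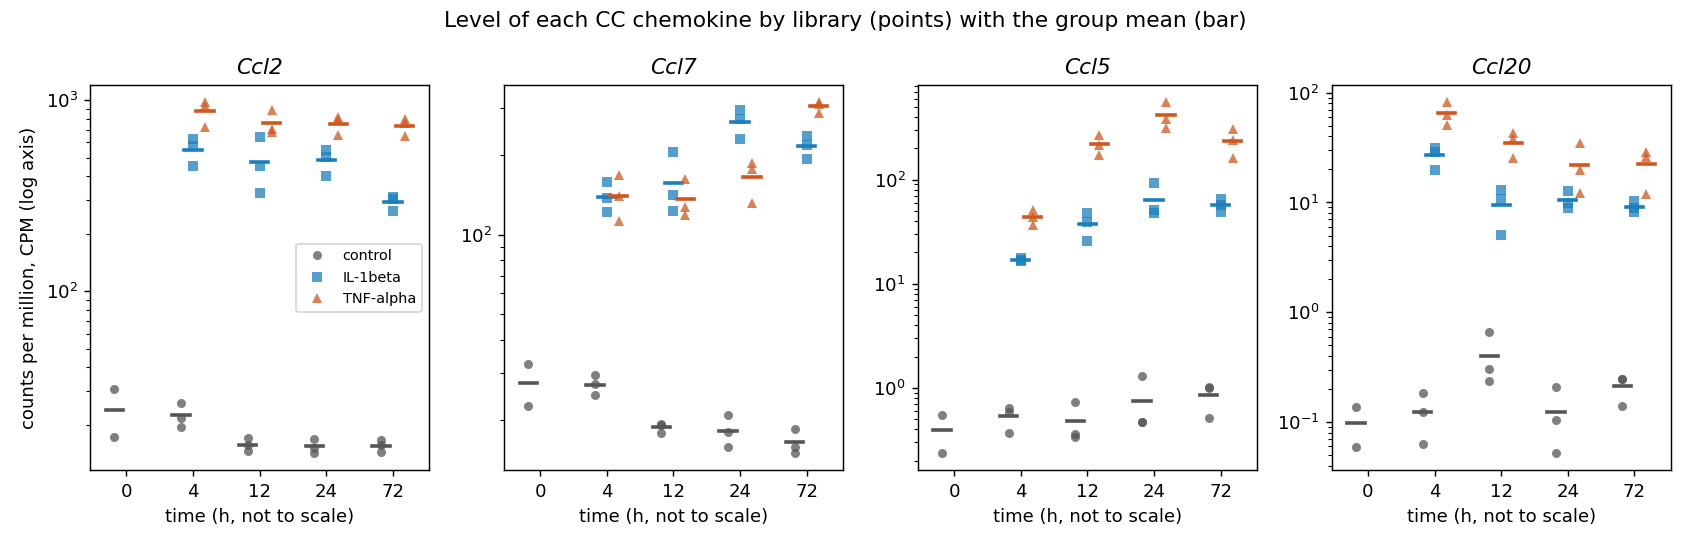
CPM on a log axis (y) by time in h (x, not to scale) for each gene, with a point for each library and a bar for the group mean of control (grey circles), IL-1beta (blue squares) and TNF-alpha (orange triangles). Every treated library lies above every control library, by at least 3.47-fold for Ccl7 and 12.7-fold for Ccl5.

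Ccl2, the monocyte attractant, rose by 18.7-fold to 48.9-fold and was higher with TNF-alpha throughout. The 14 control libraries held 14.3 to 30.7 CPM, with a median of 16.7. With IL-1beta the libraries a, b and c held 450, 627 and 574 CPM (4 h), 640, 453 and 325 (12 h), 548, 503 and 401 (24 h) and then 303, 263 and 309 (72 h). With TNF-alpha they held 936, 720 and 972 CPM (4 h), 708, 683 and 887 (12 h), 815, 657 and 786 (24 h) and then 794, 760 and 647 (72 h). All 12 TNF-alpha libraries were above all 12 IL-1beta libraries, and the 4 TNF-alpha times overlapped one another. Within IL-1beta, 4, 12 and 24 h overlapped and 72 h lay below them without overlap. The fold change over control with IL-1beta was 24.5 at 4 h, 30.1 at 12 h, 31.5 at 24 h and 18.7 at 72 h, and with TNF-alpha it was 39, 48.4, 48.9 and 47.0. On the log2 scale these ranged from 4.23 ± 0.20 (standard error, IL-1beta 72 h) to 5.61 ± 0.21 (TNF-alpha 24 h), with adjusted p of at most 1.65e-18.

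Ccl7, which shares the receptor Ccr2 with its neighbour, had a smaller response that was larger at 72 h than at 4 h under both cytokines. Control libraries held 15.0 to 32.4 CPM (median 19.2). The libraries a, b and c with IL-1beta held 121, 158 and 138 CPM (4 h), 206, 141 and 123 (12 h), 296, 273 and 230 (24 h) and then 235, 193 and 218 (72 h). Those with TNF-alpha held 140, 113 and 168 CPM (4 h), 119, 127 and 162 (12 h), 186, 131 and 176 (24 h) and then 311, 316 and 288 (72 h). The 3 groups TNF-alpha 72 h, IL-1beta 24 h and IL-1beta 72 h had the highest means, and no library of theirs was below 193 CPM. The log2 fold change over control rose from 2.36 ± 0.16 at 4 h to 3.06 ± 0.18 at 12 h with IL-1beta and was 3.87 ± 0.18 at 24 h and 3.71 ± 0.18 at 72 h. With TNF-alpha it was 2.37 ± 0.17, 2.86 ± 0.18, 3.18 ± 0.18 and 4.21 ± 0.18, which is 5.16-fold at 4 h and 18.6-fold at 72 h. The TNF-alpha value at 4 h crosses the library parting and was 2.91 against the control at 12 h. TNF-alpha libraries at 4 and 24 h overlapped, and the change of effect between these times was not tested. The largest adjusted p of these 8 tests was 1.16e-13.

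Ccl5, which draws T cells and monocytes, had the largest estimated difference between the cytokines at each time. Control libraries held 0.238 to 1.31 CPM (4 to 31 counts). With IL-1beta the libraries a, b and c held 17.1, 17.6 and 16.6 CPM (4 h), 47.8, 39.2 and 26.0 (12 h), 92.6, 47.4 and 51.0 (24 h) and then 65.5, 49.3 and 57.7 (72 h). With TNF-alpha they held 44.0, 36.5 and 50.9 CPM (4 h), 172, 269 and 217 (12 h), 553, 317 and 385 (24 h) and then 242, 308 and 161 (72 h). TNF-alpha at 24 h stood above every other group without overlap, and TNF-alpha at 12 and 72 h overlapped each other above all IL-1beta libraries. The log2 fold change with TNF-alpha was 6.29 ± 0.37 at 4 h, 8.87 ± 0.40 at 12 h, 9.11 ± 0.37 at 24 h and 8.15 ± 0.37 at 72 h. At 12 h (466-fold) and 24 h (551-fold) it ranked 1 of all 18857 genes tested. With IL-1beta it was 4.94 ± 0.39, 6.32 ± 0.45, 6.39 ± 0.39 and 6.10 ± 0.38, from 30.7-fold at 4 h to 84.0-fold at 24 h. The largest adjusted p of these 8 tests was 2.97e-12. Since each control group held only 25 to 60 Ccl5 counts, these folds rest on small denominators. Without control 24 h replicate a, the library with the highest control level, the 24 h values were 7.05 with IL-1beta and 9.77 with TNF-alpha.

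Ccl20 was highest at the first time measured. Its 14 control libraries held 0.0526 to 0.663 CPM. With IL-1beta the libraries a, b and c held 19.7, 31.6 and 29.0 CPM (4 h), 12.9, 10.7 and 5.07 (12 h), 9.95, 12.8 and 8.96 (24 h) and then 10.2, 8.97 and 8.14 (72 h). With TNF-alpha they held 62.5, 50.5 and 81.4 CPM (4 h), 25.2, 37.6 and 42.5 (12 h), 34.5, 12.2 and 19.8 (24 h) and then 26.1, 28.6 and 12.0 (72 h). Under each cytokine the 4 h libraries lay above those of the 3 later times without overlap, and the later times overlapped. With IL-1beta this step from 4 h crosses the library parting and cannot be told apart from it. The log2 fold change was 7.85 ± 0.52 at 4 h with IL-1beta and 9.11 ± 0.50 with TNF-alpha, ranks 3 and 2 among all genes tested. Ccl20 entered the genes tested through its treated libraries, so these ranks are given as a description. At 12, 24 and 72 h the log2 fold change was 4.58 ± 0.58, 6.36 ± 0.66 and 5.41 ± 0.62 with IL-1beta. With TNF-alpha it was 6.47 ± 0.49, 7.42 ± 0.60 and 6.72 ± 0.55. The largest adjusted p was 8.4e-08. Without control 24 h replicate b the 24 h values were 6.96 and 8.02. The control groups held 7 to 21 Ccl20 counts at these 4 times, and against the control at 12 h, with 21 counts, the TNF-alpha value at 4 h was 7.35 in place of 9.11. For Ccl2, Ccl7 and Ccl5 the same exchange of controls, which stays on 1 side of the library parting, gave 5.80, 2.91 and 6.54.

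**Figure D2:**
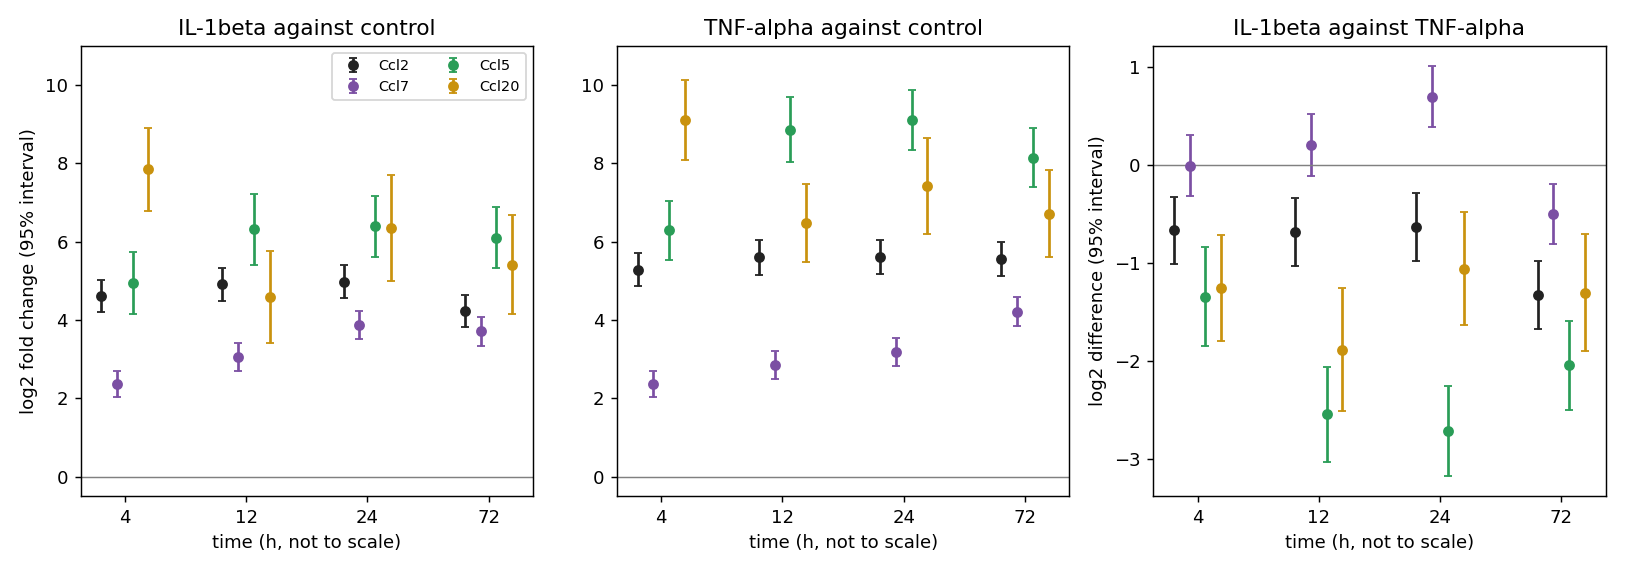
Log2 fold change of IL-1beta against control (left) and TNF-alpha against control (middle) and log2 difference of IL-1beta against TNF-alpha (right) by time in h (x, not to scale), with a point per gene and 95% intervals from edgeR. All values against control are above 0, and on the right Ccl7 is the only gene with values above 0, 0.20 at 12 h and 0.69 at 24 h.

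IL-1beta and TNF-alpha were compared directly because both were given to the same tissue, at different concentrations. Of 16 tests 13 were called lower with IL-1beta, 1 was called higher and 2 were not called. The exception in direction was Ccl7. Among all genes tested, 6.66%, 5.88%, 10.8% and 20.4% were called lower with IL-1beta than with TNF-alpha at 4, 12, 24 and 72 h, and 5.71%, 4.70%, 9.31% and 19.4% were called higher. Without overlap, 12 of the 16 member values were lower and 1 was higher. Of all genes 13.5%, 11.6%, 17.8% and 25.5% were lower without overlap and 12.7%, 10.9%, 17.7% and 24.7% were higher.

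Ccl5 differed most. Its log2 difference, IL-1beta minus TNF-alpha, was -1.35 ± 0.25 at 4 h, -2.55 ± 0.24 at 12 h, -2.71 ± 0.23 at 24 h and -2.05 ± 0.22 at 72 h, and no library overlapped at any time. Ccl20 followed with -1.26 ± 0.27, -1.89 ± 0.31, -1.06 ± 0.28 and -1.31 ± 0.29. At 24 h a TNF-alpha library with 12.2 CPM lay below an IL-1beta library with 12.8, and without TNF-alpha 24 h replicate a the difference was -0.60 with an adjusted p of 0.146. At the other 3 times the Ccl20 libraries did not overlap.

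Ccl2 was lower with IL-1beta by a smaller amount until 72 h. The difference was -0.67 ± 0.17 at 4 h, -0.68 ± 0.17 at 12 h, -0.64 ± 0.17 at 24 h and -1.33 ± 0.17 at 72 h (adjusted p 0.00616, 0.00572, 0.00486 and 6.47e-08), with no overlap at any time. The calls at the first 3 times were lost without 1 of 4 libraries: -0.52 without IL-1beta 4 h replicate a, -0.49 without IL-1beta 12 h replicate c, -0.56 without TNF-alpha 12 h replicate c and -0.52 without IL-1beta 24 h replicate c (adjusted p 0.0659, 0.0721, 0.0524 and 0.052). The call at 72 h held without any single library. In a fit of only the libraries compared, the 12 h value was also not called (-0.68, adjusted p 0.0874).

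For Ccl7 the order of the cytokines turned. The difference was -0.01 at 4 h (95% interval -0.32 to 0.30) and 0.20 at 12 h (-0.11 to 0.52), neither called. At 24 h IL-1beta libraries were higher by 0.69 ± 0.15 (adjusted p 0.000659), and at 72 h they were lower, with a difference of -0.50 ± 0.15 (adjusted p 0.00726). Both times the libraries did not overlap: 230 to 296 CPM against 131 to 186 at 24 h, and 193 to 235 against 288 to 316 at 72 h.

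Whether the cytokine difference changed with time was tested by interaction. For Ccl7 it did over 4, 12, 24 and 72 h (adjusted p 0.000348) and over 12, 24 and 72 h, which all lie on 1 side of the parting (adjusted p 0.000168). For Ccl5 it did over the 4 times (0.00568) but was not called over the last 3 (0.214). For Ccl2 it was called over the last 3 times (0.0413) and not over all 4 (0.0530). That call was lost when 1 library was left out in 10 of 18 fits, with an adjusted p of up to 0.126 without IL-1beta 72 h replicate b. Those libraries were IL-1beta 24 h a and b, all 3 of IL-1beta 72 h, TNF-alpha 12 h a and b, TNF-alpha 24 h b and TNF-alpha 72 h a and b. Ccl20 was called in neither (0.402 and 0.298). Of all genes, 31.5% were called over the 4 times and 26.2% over the last 3.

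The effect of each cytokine over its own control also changed with time for Ccl7. With TNF-alpha the log2 effect at 72 h exceeded that at 12 h by 1.35 ± 0.24 (adjusted p 0.000248) and that at 4 h by 1.85 ± 0.23 (adjusted p 3.33e-07). Of all genes tested 3.64% and 8.25% were called higher in these contrasts. Contrasts with the TNF-alpha effect at 4 h cross the library parting, as does the test over the 4 times with TNF-alpha. Against the control at 12 h, the log2 fold change of Ccl7 with TNF-alpha was 2.91 at 4 h and 2.86 at 12 h. With IL-1beta the gain from 4 to 72 h was 1.35 ± 0.23 (adjusted p 2.09e-05), where 15.7% of genes were called higher. The intermediate gains with IL-1beta, 0.70 ± 0.23 from 4 to 12 h and 0.65 ± 0.24 from 12 to 72 h, passed narrowly (adjusted p 0.0414 and 0.0426). The shares of genes called higher there were 6.34% and 14.1%. The 4 to 12 h call was lost without control 4 h a or b, any 1 of control 12 h, IL-1beta 4 h a or c, or IL-1beta 12 h a, with 0.45 and an adjusted p of 0.208 in the last case. The 12 to 72 h call was lost without any 1 of control 12 h, control 72 h b or c, IL-1beta 12 h b or c, or IL-1beta 72 h a or c, and it was 0.48 with an adjusted p of 0.16 without IL-1beta 12 h replicate c. The remaining contrast, TNF-alpha from 4 to 12 h, gave 0.49 ± 0.23 (adjusted p 0.206), and 3.76% of genes were called higher. Over the 4 times together the adjusted p for Ccl7 was 4.91e-06 with IL-1beta, where 38.7% of all genes were called, and 2.90e-06 with TNF-alpha.

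For Ccl2, Ccl5 and Ccl20 no change of effect was called in the fit of all 38 libraries for 72 h minus 12 h, 72 h minus 4 h or 12 h minus 4 h, the contrasts that were run. Some were called under other settings of edgeR. The test of the TNF-alpha effect over the 4 times together crosses the library parting. For Ccl5 that effect differed (adjusted p 0.0410), while 19.2% of all genes passed that test. It was lost without control 4 h a, b or c, control 12 h a or b, control 24 h b or c, TNF-alpha 4 h a or b, or TNF-alpha 12 h c, with adjusted p of 0.0503 to 0.22. From 4 to 12 h the Ccl5 effect of TNF-alpha gained 2.58 ± 0.85 (adjusted p 0.0583), and DESeq2 called this value (2.54, adjusted p 0.000268). From 4 to 12 h the Ccl20 effect changed by -3.27 ± 1.28 with IL-1beta and -2.64 ± 1.26 with TNF-alpha (adjusted p 0.0924 and 0.207), and DESeq2 called both (adjusted p 4.45e-05 and 0.00221). The standard errors of the Ccl20 differences exceeded 1 on the log2 scale.

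Without cytokine, a change with time was called for Ccl2 and Ccl7 between 0 and 72 h. Both were lower at 72 h, Ccl2 with a difference of -0.61 ± 0.23 (adjusted p 0.0336) and Ccl7 of -0.73 ± 0.20 (adjusted p 0.00413), with group means of 15.6 against 24.0 CPM and 16.4 against 27.4 CPM. Ccl5 and Ccl20 were not called there. Of all genes 19.6% were called lower there. This comparison crosses the library parting, and without control 0 h replicate c neither was called (-0.14 and -0.45, adjusted p 0.761 and 0.201). For Ccl2 the call was also lost without control 72 h a (-0.61, adjusted p 0.0664) or c (-0.55, adjusted p 0.0963). None of the 4 genes was called between 0 and 4 h, 12 and 24 h, or 12 and 72 h, while 20.4%, 21.7% and 37.1% of all genes were. For Ccl2 and Ccl7 the 95% intervals of these differences lay within -0.57 to 0.42 on the log2 scale, and for Ccl5 and Ccl20 they reached from -4.44 to 4.49. The step from 4 to 12 h, which crosses the library parting, was not tested. Ccl2 held 19.5 to 25.9 CPM in the control libraries at 4 h and 14.5 to 16.9 at 12 h. Ccl7 held 24.7 to 29.3 and 17.7 to 19.3, and neither gene overlapped.

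Levels of different genes were compared as CPM per kb, dividing by the gene lengths in the deposited table (1138 bases for Ccl2, 801 for Ccl7, 960 for Ccl5 and 1421 for Ccl20). In the controls Ccl7 stood above Ccl2: the ratio of Ccl2 to Ccl7 was 0.513 to 0.742 over the 14 libraries. At 4 h Ccl2 led, with a ratio of 2.78 ± 0.16 (SD, n = 3) with IL-1beta and 4.42 ± 0.32 with TNF-alpha. It then was 2.10 ± 0.21, 1.28 ± 0.042 and 0.956 ± 0.044 at 12, 24 and 72 h with IL-1beta and 3.95 ± 0.23, 3.25 ± 0.235 and 1.69 ± 0.11 with TNF-alpha. At each time the IL-1beta libraries had lower ratios than the TNF-alpha libraries without overlap, and under each cytokine the later the time, the lower the group mean. The IL-1beta ratios at 4 h lie on the other side of the library parting from all other ratios with a cytokine.

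The 4 genes made up most of the CC ligand transcripts that were measured. The summed level of all 22 CC ligands in the table rose from 44.8 to 88.3 CPM per kb in the control libraries to 866 to 1590 with TNF-alpha and 486 to 995 with IL-1beta. The 4 genes held 51.6% to 77.6% of that sum in controls, 88.1% to 98.7% with TNF-alpha and 82.6% to 98.1% with IL-1beta. Within the sum, Ccl2 held 67.7% ± 1.0 at 4 h and 36.0% ± 1.1 at 72 h with IL-1beta, and 73.2% ± 1.5 and 44.8% ± 2.3 with TNF-alpha (SD, n = 3). The share of Ccl7 with IL-1beta was 24.4% ± 1.0 at 4 h and 37.7% ± 0.71 at 72 h, so that Ccl2 and Ccl7 held nearly equal shares at the end. Ccl5 took its largest share, 31.8% ± 3.8, with TNF-alpha at 24 h, against 7.46% ± 2.1 with IL-1beta, and Ccl20 never held more than 4.81%. These shares are given as values and were not tested. With IL-1beta those at 4 and 72 h come from different sides of the library parting.

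**Figure D3:**
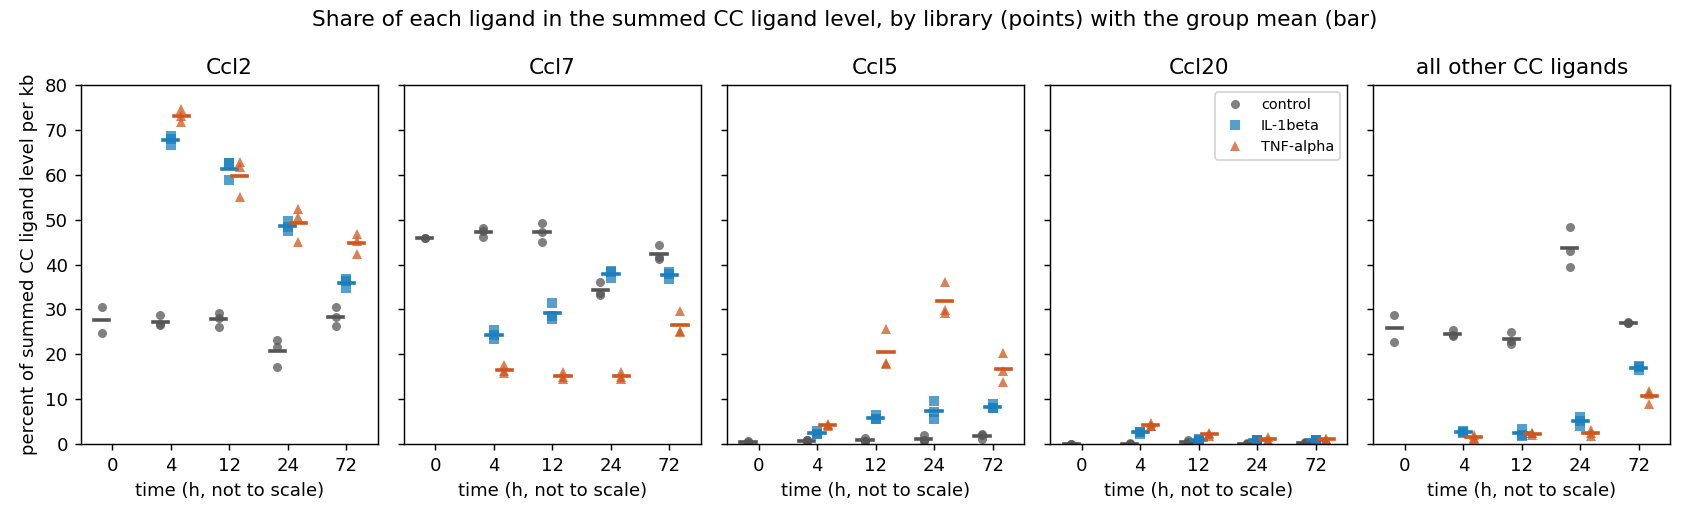
Percent of the summed CC ligand level per kb (y) held by each of the 4 genes and by all other CC ligands, by time in h (x, not to scale), with a point for each library and a bar for the group mean (grey control, blue IL-1beta, orange TNF-alpha). The Ccl2 share is highest at 4 h (67.7% and 73.2%) and the Ccl5 share peaks at 31.8% with TNF-alpha at 24 h.

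Of 19 other CC ligands listed, 18 were in the table and 7 passed the filter. Those that did not pass included Ccl11 and Ccl1, which lie in the same cluster as Ccl2 and Ccl7, with 40 and 25 counts over all 38 libraries, and Ccl3 and Ccl4 beyond Ccl5, with 35 and 15. Of the 7 tested, with IL-1beta 0, 3, 1 and 3 were called higher at 4, 12, 24 and 72 h and none lower. With TNF-alpha 2, 2, 1 and 3 were called higher, and 1 was called lower at 4 h. Among all genes 15.5%, 14.5%, 17.0% and 19.3% were called higher with IL-1beta at these times, and 10.9%, 14.6%, 13.2% and 17.8% with TNF-alpha. For IL-1beta 17.2%, 15.0%, 15.6% and 19.7% were called lower, and for TNF-alpha at 4 h 10.6%. The median log2 fold change of the 7 was 0.22, 0.26, 0.28 and 0.56 with IL-1beta and -0.03, 0.64, 0.05 and 1.13 with TNF-alpha, while that of all genes was between -0.03 and 0.00.

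Ccl8, a monocyte attractant in the cluster of Ccl2 and Ccl7, was called at 72 h only: the mean level was 4.97 CPM in the control, 55.3 with IL-1beta and 76.8 with TNF-alpha (3.46 ± 0.24 and 3.94 ± 0.24). Ccl12, a further Ccr2 ligand of that cluster, had a highest group mean of 1.10 CPM. It rose with TNF-alpha by 1.93 ± 0.44 at 4 h, 2.51 ± 0.64 at 12 h and 2.09 ± 0.47 at 72 h, and with IL-1beta by 2.03 ± 0.71 at 12 h. At 12 h its mean was 0.50 CPM with IL-1beta, 0.64 with TNF-alpha and 0.10 in the control. The highest control library of the study held 1.02. Ccl9, a Ccr1 ligand next to Ccl5, was called higher with TNF-alpha at all 4 times and with IL-1beta at 12, 24 and 72 h. Its highest mean came at 72 h with IL-1beta and at 12 h with TNF-alpha. With IL-1beta its mean level was 8.93, 9.18, 18.5 and 32.6 CPM at 4, 12, 24 and 72 h, and with TNF-alpha it was 14.0, 27.8, 17.1 and 6.81 CPM. The difference between the cytokines was -1.60 ± 0.37 at 12 h and 2.24 ± 0.34 at 72 h. Ccl6, beside Ccl9, rose with IL-1beta at 72 h by 2.53 ± 0.47 to 1.33 CPM. It passed the filter through treated libraries, since no control library held more than 0.316 CPM. Of the ligands outside these clusters, Ccl27a rose with IL-1beta at 12 h by 1.44 ± 0.42, and Ccl28, a mucosal chemokine, fell with TNF-alpha at 4 h (-0.74 ± 0.24). The Ccl27a mean was 0.82 CPM with IL-1beta at 12 h and 0.29 in its control, while the highest control library of the study held 1.56.

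**Figure D4:**
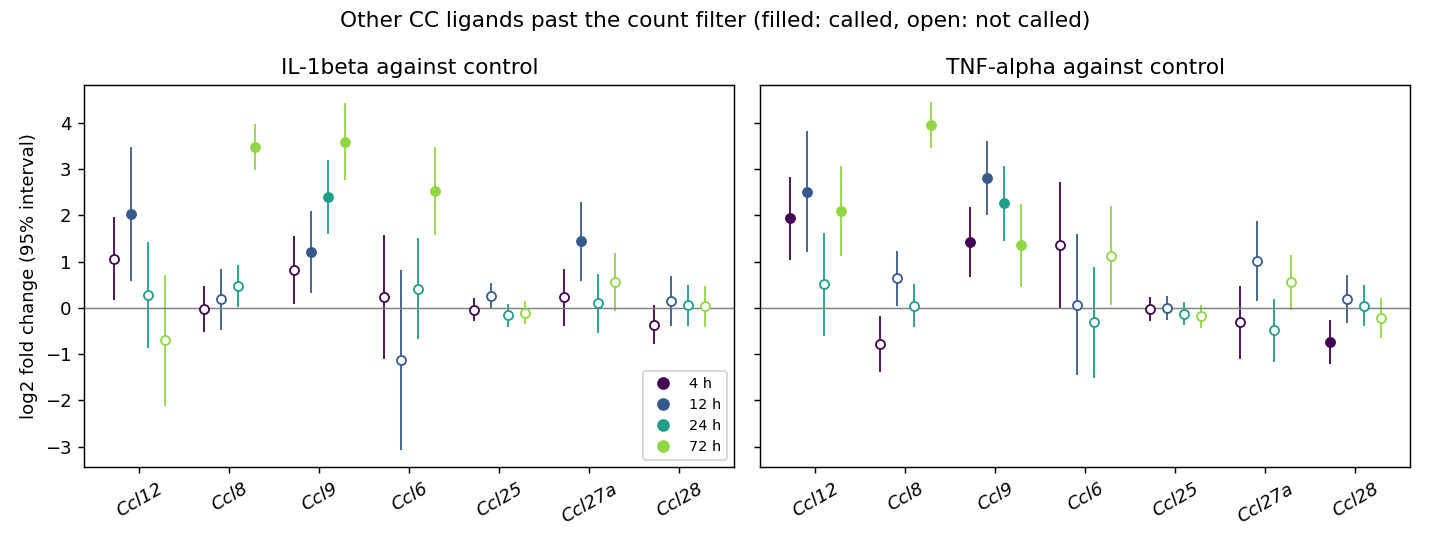
Log2 fold change over control (y, with 95% intervals from edgeR) of the 7 other CC ligands past the filter (x) at 4, 12, 24 and 72 h (dark to light), for IL-1beta (left) and TNF-alpha (right), with filled points for called values. Ccl8 is called at 72 h alone, with 3.46 and 3.94, and no ligand reaches the 4.23 that was the lowest value of Ccl2.

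Transcripts of the receptors of the 4 ligands were scarce. Over all 38 libraries Ccr2 had 45 counts and Ccr6 had 12, and neither passed the filter. Ccr1 and Ccr3 passed with 170 and 113 counts and with at most 0.43 and 0.63 CPM in any group mean. Ccr1, which passed the filter through treated libraries, was called higher with IL-1beta at 4, 12 and 24 h (1.68 ± 0.56, 2.59 ± 0.88 and 2.0 ± 0.66). These folds rest on small denominators, with control means of 0.13, 0.05 and 0.11 CPM. No control library held more than 0.22 CPM of Ccr1. Ccr3, which passed the filter through the TNF-alpha libraries, was called higher with TNF-alpha at 12 and 24 h, with 0.27 and 0.63 CPM. Its control had 0.04 CPM at 12 h and 0 counts at 24 h, so no fold is given. Ccr10, a receptor of Ccl27a and Ccl28, fell with IL-1beta at 4 h (-1.06 ± 0.34). Of 10 CC receptors 4 could be tested, and at most 1 was called higher and at most 1 lower against control at any time. Over these comparisons 10.9% to 19.3% of all genes were called higher and 10.6% to 19.7% lower.

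Among the atypical receptors, Ackr2, a decoy that takes up inflammatory CC chemokines including Ccl2 and Ccl5, parted the cytokines at 72 h. Its mean level was 2.03 CPM in the control, 0.19 with IL-1beta (-3.45 ± 0.60) and 4.87 with TNF-alpha (1.23 ± 0.32), and the direct difference was -4.68 ± 0.50 (adjusted p 1.26e-09). It was also higher with TNF-alpha at 24 h (1.21 ± 0.27). Ccrl2, a receptor-like protein that binds chemerin, rose at 4 h by 2.07 ± 0.38 with IL-1beta and 4.16 ± 0.34 with TNF-alpha, and at 72 h it was lower under both (-1.96 ± 0.41 and -1.66 ± 0.37). Ackr4, a scavenger of homeostatic CC chemokines, was called with TNF-alpha at 12 h (-0.64 ± 0.24).

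The receptors of the cytokines themselves were well measured. Il1r1, the signalling IL-1 receptor, was higher with IL-1beta at 4, 24 and 72 h (0.81 ± 0.09, 0.33 ± 0.09 and 1.06 ± 0.09) and lower with TNF-alpha at 12, 24 and 72 h (-0.36 ± 0.09, -0.38 ± 0.09 and -0.25 ± 0.09). Il1rap, its co-receptor, rose with IL-1beta at all 4 times by 0.43 ± 0.09 to 0.97 ± 0.09. Tnfrsf1a, the main TNF receptor of most cells, fell with TNF-alpha at 4 and 12 h (-0.25 ± 0.06 and -0.26 ± 0.07) and rose with IL-1beta at 24 and 72 h (0.48 ± 0.07 and 0.60 ± 0.07). Tnfrsf1b, the second TNF receptor, rose in all 8 comparisons, by 0.49 ± 0.08 (TNF-alpha 4 h) to 1.32 ± 0.08 (TNF-alpha 72 h). Of these 5 genes with Il1r2, 3, 2, 4 and 4 were called higher with IL-1beta at the 4 times and none lower. With TNF-alpha 1, 1, 1 and 2 were called higher and 1, 2, 1 and 1 lower. The shares of all genes called higher were 15.5%, 14.5%, 17.0% and 19.3% with IL-1beta and 10.9%, 14.6%, 13.2% and 17.8% with TNF-alpha. Those called lower were 17.2%, 15.0%, 15.6% and 19.7% with IL-1beta and 10.6%, 13.8%, 11.9% and 18.3% with TNF-alpha.

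Of 11 regulators of chemokine transcription and mRNA decay, 9, 7, 9 and 9 were called higher with IL-1beta at 4, 12, 24 and 72 h and none lower. With TNF-alpha 8, 7, 7 and 8 were called higher and 1 lower at each time. The shares of all genes called higher were 15.5%, 14.5%, 17.0% and 19.3% with IL-1beta and 10.9%, 14.6%, 13.2% and 17.8% with TNF-alpha. Those called lower were 17.2%, 15.0%, 15.6% and 19.7% with IL-1beta and 10.6%, 13.8%, 11.9% and 18.3% with TNF-alpha. The list medians were 0.97, 0.47, 1.41 and 0.90 with IL-1beta and 0.79, 0.45, 0.46 and 0.51 with TNF-alpha. The NF-kappaB subunits Nfkb2 and Relb rose in all 8 comparisons, Nfkb2 by 1.29 ± 0.10 to 2.13 ± 0.10 and Relb by 1.34 ± 0.09 to 2.25 ± 0.09, each with its largest value at 4 h with IL-1beta. Nfkb1 rose by 1.43 ± 0.06 and 1.16 ± 0.06 at 4 h with IL-1beta and TNF-alpha, and Rela rose in all 8 comparisons by 0.26 ± 0.09 to 0.79 ± 0.09. Rel was called higher at 4, 24 and 72 h under both cytokines, by 0.44 ± 0.15 to 0.97 ± 0.14.

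Several regulators differed between the cytokines in the opposite or the same sense as the chemokines. Irf1, a transcription factor of interferon responses, was lower with IL-1beta than with TNF-alpha at every time, by -1.67 ± 0.16, -1.42 ± 0.17, -1.02 ± 0.15 and -1.18 ± 0.16, the sense seen for Ccl2, Ccl5 and Ccl20. Irf7 was lower with IL-1beta at 12 h (-2.28 ± 0.68), and Irf3 differed at 4 and 72 h in the other sense (0.40 ± 0.08 and 0.53 ± 0.08). Zc3h12a, which encodes the endonuclease Regnase-1 that degrades inflammatory mRNAs, was higher with IL-1beta than with TNF-alpha by 1.37 ± 0.13, 1.68 ± 0.14, 2.53 ± 0.14 and 2.39 ± 0.14. Nfkbiz, a nuclear cofactor of NF-kappaB, was higher by 0.97 ± 0.09, 1.09 ± 0.09, 1.98 ± 0.09 and 2.03 ± 0.09. Zfp36, which encodes the mRNA-decay protein tristetraprolin, was lower with IL-1beta at 72 h (-0.63 ± 0.15). No relation of these genes to the chemokines was tested.

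The genes whose pattern was most like each chemokine were found by Pearson correlation of log2 CPM over the 13 group means among 12619 genes, as a description. For Ccl2 they were Arg2 (0.986), Cxcl3 (0.982) and Ch25h (0.981), for Ccl7 Glipr2 (0.969), Slc16a10 (0.968) and Arg2 (0.967), for Ccl5 Cybb (0.988), Vegfc (0.980) and H2-Q4 (0.980), and for Ccl20 Tnip1 (0.981), Gbp2 (0.978) and Tnfaip3 (0.976). The points share the control groups and the step from control to cytokine. Among themselves the 4 chemokines correlated at 0.906 (Ccl7 with Ccl20) to 0.979 (Ccl2 with Ccl20).

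All 18 leukocyte markers listed summed to 15.9 to 32.1 CPM in the control libraries, 18.3 to 64.9 with TNF-alpha and 17.2 to 44.0 with IL-1beta, and 6 of them could be tested. The pan-leukocyte gene Ptprc had a group mean of at most 0.42 CPM, Tyrobp at most 0.32 and Cd3e at most 0.06. Cd68, which is not limited to leukocytes, reached 47.2 CPM with TNF-alpha at 72 h but had 8.72 with IL-1beta, against 18.5 in the control. At 24 h its mean was above the control under both cytokines, with 35.0 CPM (IL-1beta) and 31.2 (TNF-alpha) against 17.9. S100a8, a calcium-binding protein of myeloid cells, was called higher in 7 of the 8 comparisons with control and at 4 h had 0.52 CPM in the control and 3.90 with IL-1beta (2.81 ± 0.36). Csf1r, the receptor of macrophage colony-stimulating factor, was called higher with TNF-alpha at all 4 times and had 2.88 CPM at 72 h against 1.09 (1.36 ± 0.30). Laptm5 went the other way, with means below control under both cytokines at all 4 times. At 72 h it had 7.24 CPM in the control, 1.76 with IL-1beta and 1.87 with TNF-alpha. Of the 6, 3 were called higher and 1 lower with TNF-alpha at 72 h, and 1 and 2 with IL-1beta. The chondrocyte markers moved mostly at the late times. All 8 were called lower with IL-1beta at 24 and 72 h, and 4 and 7 with TNF-alpha. At 12 h 4 were called lower with IL-1beta and 3 with TNF-alpha. With TNF-alpha 1 of the 8 was called higher at each of 4, 12 and 24 h. Matn3 had a mean of 429 CPM with TNF-alpha at 24 h and 295 in the control. The summed level of the 8 markers at 72 h was 34123 to 40740 CPM with TNF-alpha and 15442 to 16766 with IL-1beta. Of all genes 17.2%, 15.0%, 15.6% and 19.7% were called lower with IL-1beta at 4, 12, 24 and 72 h, and 10.6%, 13.8%, 11.9% and 18.3% with TNF-alpha. The shares called higher were 15.5%, 14.5%, 17.0% and 19.3% with IL-1beta and 10.9%, 14.6%, 13.2% and 17.8% with TNF-alpha. The 7 fibroblast markers summed to 20513 to 38631 CPM in controls, 10291 to 35663 with TNF-alpha and 21200 to 37417 with IL-1beta. The part of these marker changes in the chemokine levels was not tested.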

How the data were processed

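Gene counts are as deposited: per the submitters' processing notes Trimmomatic, cutadapt, STAR and featureCounts were used with the mouse build mm10, and per the labels RNA from homogenized cartilage was made into libraries with an Illumina Ribo-Zero Gold kit. The strand setting, the annotation and the tool versions: not given in the sources used here. Unstranded counting would add reads of overlapping antisense genes. The deposited table ends in 2199 nameless lines with 15490 counts, which were left out. Its last 2 columns (IL-1beta 72 h b and c) hold whole-number counts on all named genes, were labelled as another unit because those ragged lines do not reach them, and were used like the rest. Replicate b of the control at 0 h was left out.

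Counts were tested with edgeR 4.0.16 (R 4.3.3, limma 3.58.1) by the quasi-likelihood F test in 1 fit of 38 libraries and 13 groups, with TMM scaling (factors 0.864 to 1.12) and filterByExpr, which kept 18857 genes with 99.9% of the counts. The common biological coefficient of variation was 8.26%. Genes with a Benjamini-Hochberg adjusted p under 0.05, over all genes tested, were called. Standard errors are the absolute log2 fold change over the square root of F. CPM use TMM-scaled totals. Libraries of a group were not copies (chi-square per degree of freedom at least 3.39). The letters a, b and c did not pair libraries: in 0 of 12 comparisons did every same-letter pair correlate over 0.1 (range -0.0931 to 0.0859).

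The members and lists were chosen with earlier results of these data known, and so were the tests. Named genes were the members, list genes called in at least 1 of 12 cytokine comparisons with a group mean of at least 1 CPM, receptors of the members, and 3 genes of like pattern for each member (genes of mean CPM of at least 1). Ccl11, Ccl1, Ccl3, Ccl4 and the marker genes were named after their values were seen. Values of some single list genes are not reported here. The motifs were chosen after the files were seen. The scripts were tested on simulated counts with known changes. Alternatives were DESeq2 1.42.0, other scalings, no filter, a replicate block, only the libraries compared, all 39 libraries and each library left out. Figures were drawn with matplotlib 3.10.9 (pandas 2.3.3, NumPy 2.4.6) in Python 3.11.15.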

Additional observations from a re-analysis of the deposited data

Results flagged for a closer look

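For Ccl7 the effect of a cytokine over its control differed between times by the interaction test of edgeR. With IL-1beta the difference was 0.65 ± 0.24 for 72 h minus 12 h, 1.35 ± 0.23 for 72 h minus 4 h and 0.70 ± 0.23 for 12 h minus 4 h (adjusted p 0.0426, 2.09e-05 and 0.0414). With TNF-alpha it was 1.35 ± 0.24 for 72 h minus 12 h and 1.85 ± 0.23 for 72 h minus 4 h (adjusted p 0.000248 and 3.33e-07). The TNF-alpha contrast with 4 h crosses the library parting, as does the TNF-alpha test over all 4 times. Over all 4 times together the adjusted p was 4.91e-06 with IL-1beta and 2.90e-06 with TNF-alpha, and for Ccl5 with TNF-alpha it was 0.0410. In these 2 tests 38.7% and 19.2% of all genes were called. Without 1 library the Ccl5 call was lost in 10 of 24 fits. The Ccl7 calls with IL-1beta were lost in 9 of 12 fits (72 h minus 12 h) and 8 of 12 (12 h minus 4 h).

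The difference between the cytokines also changed with time by an interaction test. Over 4, 12, 24 and 72 h the adjusted p was 0.000348 for Ccl7 and 0.00568 for Ccl5, and 31.5% of all genes were called. This test crosses the library parting at 4 h, and over 12, 24 and 72 h Ccl5 was not called (0.214). Over those 3 times the adjusted p was 0.000168 for Ccl7 and 0.0413 for Ccl2, and 26.2% of all genes were called. The Ccl2 call was lost in 10 of 18 fits without 1 library.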

How the results depend on the processing

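All 48 member values of the cytokine comparisons kept their side of the threshold with DESeq2 size factors, library totals, no low-count filter, the replicate block and the DESeq2 Wald test. They did so in 43 of 48 with all 39 libraries, 47 of 48 with only the libraries compared and 283 of 288 fits without 1 library. No called value changed direction. There were 35 sign changes, each of a value called neither before nor after, 21 of them without 1 library. Of the 35, 7 were of Ccl7 between the cytokines at 4 or 12 h, as from 0.20 to -0.05 without IL-1beta 12 h replicate a. With all 39 libraries Ccl5 went from 0.53 to -1.65 (control 4 h and 0 h) and from 1.11 to -1.07 (control 72 h and 0 h), and Ccl20 from 0.22 to -1.13 (control 4 h and 0 h). Except where a cause is named, the cause was not tested. Depth limits Ccl20 and Ccl5 in the controls, with 3 to 21 and 12 to 60 counts a group. Library totals moved the median of all genes by -0.101 (IL-1beta against control, 4 h), 0.109 (TNF-alpha against control, 72 h) and -0.100 (IL-1beta against TNF-alpha, 72 h).

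The letters do not pair the libraries. The replicate block changed 1 member value: the Ccl5 effect of TNF-alpha, 12 h minus 4 h, was 2.58 with an adjusted p of 0.0429.

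With DESeq2 the values newly called, as differences of effects, were -0.70 for Ccl2 (IL-1beta, 72 h minus 12 h), -2.45 and -3.28 for Ccl20 with IL-1beta (72 h and 12 h minus 4 h), -2.42 and -2.67 for Ccl20 with TNF-alpha, and 1.80 and 2.54 for Ccl5 with TNF-alpha. With DESeq2 size factors in edgeR the first of these was also called (-0.70), and so was the Ccl2 cytokine difference over 4 times (adjusted p 0.0493). With library totals Ccl2 between control 72 h and 0 h (-0.52) and the Ccl7 effect of IL-1beta, 72 h minus 12 h (0.62), were lost, while Ccl5 with TNF-alpha, 12 h minus 4 h (2.65), and Ccl2 over 4 times (adjusted p 0.0355) were gained.

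Without the low-count filter the prior degrees of freedom became infinite in place of 8.95, which lowers p-values. Differences of effects newly called were, for Ccl2, -0.66 and -0.37 (IL-1beta, 72 h minus 12 h and minus 4 h) and 0.38 (TNF-alpha, 12 h minus 4 h), and for Ccl7 0.56 (TNF-alpha, 12 h minus 4 h). For Ccl5 they were 1.18 and 1.37 with IL-1beta and 1.91 and 2.64 with TNF-alpha (72 h and 12 h minus 4 h), and for Ccl20 -2.42, -3.28, -2.34 and -2.58 in the same order. The adjusted p over 4 times was 1.82e-09, 2.96e-05 and 3.15e-09 for Ccl2, Ccl5 and Ccl20 with IL-1beta, 0.0149 and 1.97e-05 for Ccl2 and Ccl20 with TNF-alpha, and 1.46e-11 and 8.26e-06 for Ccl2 and Ccl20 in the cytokine difference. Over the last 3 times it was 8.42e-08 for Ccl5 and 7.08e-06 for Ccl20.

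With only the libraries compared, IL-1beta against TNF-alpha gave 1549 genes at 4 h and 908 at 12 h, where fewer samples entered, and the TNF-alpha effect, 12 h minus 4 h, gave 910. Ccl2 was lost at 12 h (-0.68) and over the last 3 times (adjusted p 0.0683). Newly called were Ccl2 with IL-1beta, 72 h minus 12 h (-0.71), Ccl5 with IL-1beta, 72 h minus 4 h (1.12), Ccl5 with TNF-alpha, 72 h and 12 h minus 4 h (1.87 and 2.57), Ccl20 with IL-1beta, 72 h and 12 h minus 4 h (-2.48 and -3.27), and Ccl20 with IL-1beta over 4 times (adjusted p 0.00949).

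With all 39 libraries, the one of 220180 counts included, fewer genes were called: 2848, 2722, 3029 and 4284 for IL-1beta at 4, 12, 24 and 72 h, 1584, 2331, 2038 and 3330 for TNF-alpha, and 685, 639, 1865 and 4342 between the cytokines. Between controls they were 1745 (4 h and 0 h), 4331 (72 h and 0 h), 907 (24 h and 12 h) and 3304 (72 h and 12 h). For 72 h minus 12 h, 72 h minus 4 h and 12 h minus 4 h they were 2437, 2529 and 556 with IL-1beta and 291, 854 and 218 with TNF-alpha, and over several times they were 2994, 739, 2368 and 1968. Lost were Ccl2 between the cytokines at 4, 12 and 24 h (-0.66, -0.70 and -0.65), Ccl5 at 4 h (-1.34), Ccl7 at 72 h (-0.52), Ccl2 and Ccl7 between control 72 h and 0 h (-0.35 and -0.60), and Ccl7 with IL-1beta for 72 h minus 12 h (0.63) and 12 h minus 4 h (0.71). Also lost were Ccl5 over 4 times with TNF-alpha and between the cytokines, and Ccl2 over the last 3 (adjusted p 0.388, 0.375 and 0.663).

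Leaving out 1 library at a time changed a call in these ranges. Between the cytokines Ccl2 ran from -0.78 to -0.52 at 4 h, -0.97 to -0.49 at 12 h and -0.73 to -0.52 at 24 h, and Ccl20 from -1.36 to -0.60 at 24 h. Between control 72 h and 0 h Ccl2 ran from -0.98 to -0.14 and Ccl7 from -0.98 to -0.45. The difference of effects ran from -0.92 to -0.43 for Ccl2 (IL-1beta, 72 h minus 12 h), 0.45 to 0.84 and 0.48 to 0.87 for Ccl7 (IL-1beta, 12 h minus 4 h and 72 h minus 12 h), and 2.36 to 3.01 and 1.58 to 2.07 for Ccl5 (TNF-alpha, 12 h and 72 h minus 4 h). Adjusted p over several times ran from 0.0140 to 0.179 for Ccl2 with IL-1beta, 0.0251 to 0.220 for Ccl5 with TNF-alpha, and, between the cytokines, 0.0111 to 0.169 (Ccl2, 4 times), 0.00760 to 0.126 (Ccl2, last 3), 0.0225 to 0.522 (Ccl5, last 3) and 0.0399 to 0.643 (Ccl20, last 3). Genes called ran from 1530 to 3160 between control 4 h and 0 h (lowest without control 0 h replicate c), 1431 to 2078 between the cytokines at 4 h (lowest without TNF-alpha 4 h replicate a) and 880 to 1873 for the TNF-alpha effect, 12 h minus 4 h (lowest without control 4 h replicate a). With all libraries these counts were 3839, 2332 and 1399.

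Over the 38 libraries in place of the 13 group means, 5 of the 12 genes of like pattern were no longer among the first 3: Cxcl3 (0.972), Slc16a10 (0.901), Vegfc (0.966), H2-Q4 (0.958) and Gbp2 (0.964).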
